A study of Mus musculus with 84 samples.

Results

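H3K27ac was mapped by ChIP-seq in the colon epithelium of male mice kept for 20 weeks on a high fat diet (HFD) or a low fat diet (LFD). The regions described here were obtained by merging peaks that overlapped by at least 1 bp over the peak lists of the 6 male libraries, 3 per diet. They numbered 47973, against 70669 when all 23 H3K27ac lists of the series, which include females and recipients of transplanted bacteria, were merged. All mice were C57BL/6. The HFD drew 60% of its energy from fat and the LFD 10%, and the males were bought at 5 weeks of age and housed singly. No gene was altered in either group, and the groups differed by diet alone as far as the labels state. The libraries of a group are labelled as replicates 1 to 3, and p-values given here measure only the spread between these samples. The labels do not say whether a library came from 1 mouse or from several, and counts of females below are of libraries. Each list holds the start and end of every peak, so the sequencing depth behind it is unknown, and the values below are the presence and the length of peaks.

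H3K27ac, acetylation of lysine 27 of histone H3, is laid down by the acetyltransferases p300 and CBP and marks active promoters and enhancers. Enhancers also carry H3K4me1, and those with H3K4me1 but without H3K27ac are usually called poised. In colon epithelium such elements are bound by factors of intestinal identity, among them HNF4α, CDX2 and the KLF family, and by signal-responsive factors of the AP-1 family.

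The 228 regions with a peak in all 3 HFD lists and in no LFD list, 0.475% of all merged regions, are called HFD-exclusive below. The 83 regions with the opposite pattern, 0.173% of all, are called LFD-exclusive. Sequences are shown for 6 of them. These either overlapped an HNF4α site or had a peak in at least 2 HFD females and no LFD female. The females entered no step of the choice of exclusive regions. Only regions with motif letters were eligible, and at HNF4α sites the letters had to be those of HNF4α and lie close to the site. The motif in each stretch therefore follows from the choice, and wider regions were passed over. Each stretch of 121 bases is from the + strand of NCBIM37 (mm9), 5′ to 3′, and the capitals mark the letters of a motif on either strand. The Phf21a stretch at chr2:91902806-91902926 and the Pcgf5 stretch at chr19:36355655-36355775 hold an HNF4α motif, as does the Tex2 stretch at chr11:106499127-106499247. AP-1 letters stand in the Ankrd50 stretch at chr3:38395607-38395727 and in the Phf15 stretch at chr11:51625906-51626026. The Tmem156 stretch at chr5:65487083-65487203 holds the reverse complement of the KLF letters. The regions near Phf21a, Ankrd50, Phf15 and Tmem156 were HFD-exclusive, and those near Pcgf5 and Tex2 were LFD-exclusive.
Phf21a: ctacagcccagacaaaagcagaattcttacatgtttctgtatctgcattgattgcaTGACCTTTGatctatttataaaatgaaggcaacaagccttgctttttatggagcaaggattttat
Pcgf5: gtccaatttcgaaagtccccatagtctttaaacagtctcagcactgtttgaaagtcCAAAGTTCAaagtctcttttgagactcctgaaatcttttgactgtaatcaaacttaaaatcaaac
Tex2: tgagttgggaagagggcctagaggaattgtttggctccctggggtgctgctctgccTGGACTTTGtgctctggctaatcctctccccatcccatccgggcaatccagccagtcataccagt
Ankrd50: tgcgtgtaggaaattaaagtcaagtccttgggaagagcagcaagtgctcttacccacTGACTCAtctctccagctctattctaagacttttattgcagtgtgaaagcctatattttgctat
Phf15: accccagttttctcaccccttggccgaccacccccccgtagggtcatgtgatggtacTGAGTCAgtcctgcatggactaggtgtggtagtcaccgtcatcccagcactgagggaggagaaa
Tmem156: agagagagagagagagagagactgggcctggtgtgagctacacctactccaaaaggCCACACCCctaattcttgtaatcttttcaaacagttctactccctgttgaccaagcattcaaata

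These letters were common in all classes of region. In the central 1000 bp, the AP-1 letters TGANTCA were found in 33.8% of HFD-exclusive and 27.7% of LFD-exclusive regions, against 29.7% of all merged regions. The HNF4α letters (CAAAGGCCA, CAAAGGTCA, CAAAGTCCA or CAAAGTTCA) were found in 32 of 228 HFD-exclusive (14.0%) and in 10 of 83 LFD-exclusive regions, against 9.61% of all. Among regions with a peak in 3 of the 6 lists in any other combination, the shares were 32.4% for AP-1 and 11.3% for HNF4α. The KLF letters GGGTGTGG were present in 11.4% of HFD-exclusive, 7.23% of LFD-exclusive and 11.6% of all regions. The CDX2 letters, TTTATGGC or TTTATTGC, were present in 9.21%, 3.61% and 8.51%. No set of letters overlaps another, both strands were searched, and a match is a description of the letters only.

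The acetylated landscape as a whole was alike on both diets. Peaks numbered 39425, 41612 and 42444 in the libraries from HFD mice, and 41915, 40140 and 39405 in those from LFD mice. Their ranges overlapped almost entirely, and the difference of 673.667 peaks between the means gave p = 0.7 (two-sided exact permutation test). Covered length was 103.7, 120.4 and 127.4 Mb on the HFD and 125.5, 113.8 and 110.8 Mb on the LFD. The HFD mean was 117 Mb with an SD of 12.2 (n = 3), and the LFD mean was 117 Mb with an SD of 7.75 (n = 3). The exact permutation test gave p = 1. HFD replicate 1 had the lowest covered length of the 6 lists. The median peak measured 2000 bp in every library but HFD replicate 3, where it was 2200 bp.

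Promoters and HNF4α-bound elements took a like share on both diets. A peak lay within 1000 bp of the transcription start site (TSS) of 11689, 11899 and 12082 protein-coding genes on the HFD and of 11919, 11769 and 11750 on the LFD (p = 0.7, two-sided exact permutation test). Of the peaks, 71.0 to 72.2% were distal on the HFD and 71.0 to 72.2% on the LFD. Sites of HNF4α, the nuclear receptor that maintains enterocyte identity, were taken from lists of the same diets and underlay 28.4 to 29.1% and 28.1 to 29.4% of the peaks. All 6 comparisons of library values had an adjusted p of 1, and 3 libraries against 3 cannot give an exact permutation p below 0.1.

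More than 50% of the regions were shared by every library. Of the 47973 regions, 25544 (53.2%) had a peak in all 6 lists and 9193 (19.2%) in 1 list only. Shared regions were wide, with a median width of 4000 bp, and 41.1% of them overlapped a TSS window. Regions of a single list had a median width of 1000 bp, and 6.20% overlapped a TSS window. The overlap between lists did not follow the diet. The Jaccard index in bp averaged 0.680 over the 6 pairs of libraries of 1 diet and 0.683 over the 9 pairs of different diets. The plot of regions by presence shows the concentration of regions in all 6 lists.

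**Figure D1:**
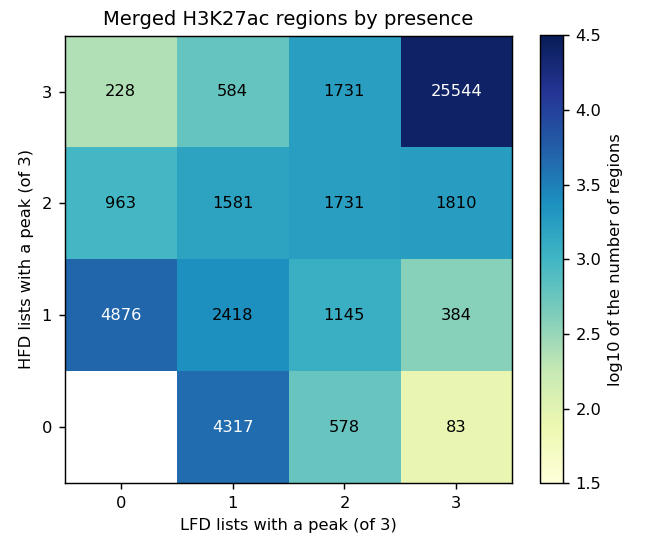
Number of merged H3K27ac regions by the number of HFD lists (vertical axis) and of LFD lists (horizontal axis) with a peak, with color giving log10 of the number. The 25544 regions of all 6 lists fill the upper right corner, and the 228 and 83 exclusive regions the corners of a single diet.

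H3K27ac at promoters went with expression. The RNA values come from 12 libraries of male recipients of transplanted bacteria, 3 for each of 4 combinations of fed diet and donor diet. Per the methods, cells for RNA were scraped off the colon, whereas the epithelial cells were isolated by shaking colon pieces in EDTA. Both the mice and the cell preparation therefore differ, so the RNA values place the genes by level only. The median level of genes with no promoter peak was 0.0133 CPM (library-scaled counts) per kb of exon over 7387 genes. It was 0.702 for genes with a promoter peak in 1 list and 9.91 for the 10084 genes with one in all 6.

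The epithelial origin was checked with marker genes. Promoters of all 13 epithelial markers, of all 11 absorptive colonocyte markers and of all 8 proliferation markers carried a peak in all 6 lists. So did 10 of 12 goblet cell markers and all 20 intestinal transcription factors. Markers of the rarer epithelial lineages mostly lacked a promoter peak in every list, as 7 of 8 tuft cell and 9 of 12 enteroendocrine genes did. Of markers of cells outside the epithelium, the promoters of 7 of 8 fibroblast, 7 of 8 enteric neuron and glia, 9 of 12 leukocyte, 6 of 8 smooth muscle, 6 of 8 hepatocyte, 5 of 8 endothelium and 5 of 8 adipocyte genes had no peak in any list. The endothelial genes Pecam1, Eng and Esam, the adipocyte genes Cidec and Lipe and the hepatocyte genes Ttr and Apob had a promoter peak in all 6. Acta2 of smooth muscle had one in 1 HFD list and 3 LFD lists. Among the leukocyte genes, Cd3e, Cd79a, Itgam and Lyz2 had none.

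HFD-exclusive regions lay mostly away from promoters. Of the 228, 16 overlapped a TSS window, 40 an exon, 66 an intron alone, and 106 lay between genes, with a median distance of 24.8 kb to the nearest coding TSS. Of the 83 LFD-exclusive regions, 5 overlapped a TSS window, 16 an exon, 35 an intron and 27 lay between genes, at a median of 22.5 kb. They were short where present, with a median length of 1200 bp in both sets, against 2800 bp in regions of all 6 lists. The place of regions with a peak in 3 lists of other combinations was alike, with 8.69% at a TSS window and a median of 22.2 kb.

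Both sets carried the enhancer mark H3K4me1 on either diet. H3K4me1 was found in at least 2 of 3 LFD lists at 223 of the 228 HFD-exclusive regions, and at 221 in the HFD lists. Of the 83 LFD-exclusive regions, 76 had H3K4me1 in at least 2 HFD lists and 76 in at least 2 LFD lists. Among regions of 3 lists in other combinations, 94.7% had H3K4me1 in at least 2 LFD lists and 93.3% in at least 2 HFD lists. HNF4α sites found in both replicates of a diet lay in 31 HFD-exclusive regions (13.6%) and in 4 LFD-exclusive regions (4.82%). Such sites lay in 12.2% of regions of 3 lists in other combinations and in 25.7% of all regions.

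The widest HFD-exclusive region by mean length over the 3 lists, at chrX:18450601-18454000, lay 414 kb from the nearest coding TSS, that of 4930578C19Rik. Peaks covered 2400, 2800 and 2400 bp of it in the HFD libraries. A region 85.5 kb from Dcaf4, which encodes a subunit of a ubiquitin ligase complex, held 800, 3400 and 2600 bp. A region 4.91 kb from Tmem156 held 3800, 1000 and 1600 bp. The lengths differed between the HFD libraries, as at Dcaf4. Near Ccrn4l, the clock-controlled nocturnin gene, peaks covered 2000, 1000 and 3200 bp. In an intron of Tox, encoding a factor of T cell development, they covered 1600, 2600 and 2000 bp. The other 7 of the 12 widest were near 1700024P16Rik, Atp11a, Ankrd50, Pdss2, Spice1, Bcas1 and Arhgef26, with 800 to 3200 bp in each HFD library.

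The widest LFD-exclusive region lay at chr2:129852201-129858000, 17.0 kb from the TSS of Tgm3, a transglutaminase that cross-links proteins. Peaks covered 5000, 2400 and 1400 bp of it in the LFD libraries. An exonic region of Utrn, which encodes the cytoskeletal protein utrophin, held 3200, 2600 and 2000 bp. An intronic region of Fut8, the enzyme of core fucosylation, held 2200, 2800 and 1800 bp. The spread among the LFD libraries was as wide as among the HFD libraries. Peaks near Cxadr, a junctional adhesion protein that serves as the coxsackievirus and adenovirus receptor, covered 3200, 1200 and 2000 bp. The remaining 4 of the 8 widest lay near Caprin1, Canx, Adc and 9530068E07Rik, with 800 to 3400 bp in each LFD library.

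**Figure D2:**
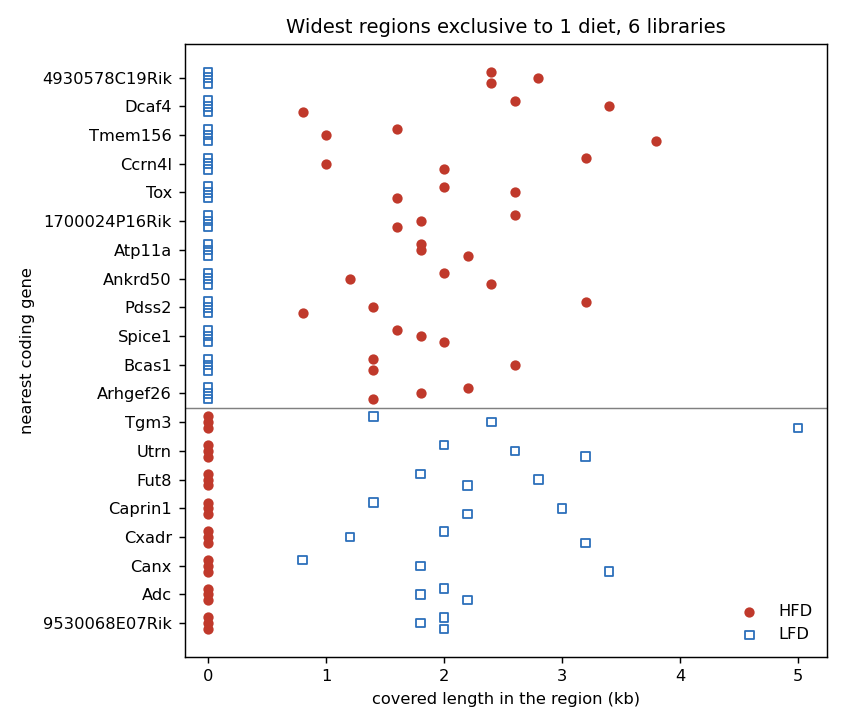
Length covered by peaks (kb, horizontal axis) in each of the 6 libraries for the 12 widest HFD-exclusive and the 8 widest LFD-exclusive regions, named by the nearest coding gene. Each filled circle is an HFD and each open square an LFD library. All points of the absent diet lie at 0 by the choice of regions, while the 3 libraries of the other diet scatter.

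Promoters acetylated on a single diet were few. A peak within 1000 bp of a TSS in all 3 HFD lists and no LFD list was found for 11 of 22219 coding genes (0.0495%), and the opposite for 3 (0.0135%). Among the 11 were Cxcl9, Gm1965, Ltk, Rassf2, Rec8, Rnf144a, Scnn1g, Tat, Tcp11l1 and Zdhhc15, and the 3 were Caly, Lhx1 and Zfp773. For Tat, the tyrosine aminotransferase of amino acid breakdown, the region at the promoter had peaks in all 6 lists and only its reach to the TSS window differed. Tat held 12200, 11200 and 11800 bp on the HFD and 10000, 11000 and 10400 bp on the LFD.

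Scnn1g encodes the γ subunit of the epithelial sodium channel, through which the distal colon takes up sodium under the control of aldosterone. Its promoter region at chr7:128878001-128879400, which overlaps the start of the gene, held 600, 1400 and 800 bp on the HFD and no peak on the LFD. Peaks assigned to the whole gene covered 2400, 2800 and 2000 bp on the HFD and 1000, 800 and 1400 bp on the LFD. These sums include the promoter region, which was chosen for its absence on the LFD, and so are given as a description with no test. Nr3c2, which encodes the mineralocorticoid receptor for aldosterone, was 1 of 5 genes nearest to 2 HFD-exclusive regions. These lay 246 and 255 kb from its TSS, with 1200, 2000 and 1600 bp in the former and 1000, 600 and 1400 bp in the latter. They are near each other, at chr8:79175801-79178000 and chr8:79167801-79169200, and beyond the 100 kb used for gene sums. In females the former held no peak. The latter held 1200, 1200 and 600 bp on the HFD and 0, 0 and 1000 bp on the LFD. A link of these regions with Nr3c2 or Scnn1g was not tested. The other channel subunits did not share the Scnn1g pattern. The Scnn1a promoter region, of the α subunit, held 3800, 7200 and 7200 bp on the HFD and 8400, 5800 and 6600 bp on the LFD. That of Scnn1b, the β subunit, held a peak of 800 bp in HFD replicate 3 only. In females the Scnn1g promoter region held 1000 bp in 1 HFD library and 800 bp in 1 LFD library.

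Further genes nearest to 2 HFD-exclusive regions were 1600029D21Rik, Fam13a, Man1c1 and Sgms1. Sgms1 encodes a sphingomyelin synthase and Man1c1 a mannosidase of the Golgi. At Sgms1, an intronic region 11.3 kb from the TSS held 1200, 1200 and 1600 bp and one at 26.8 kb held 1000, 1400 and 1200 bp on the HFD. No gene was nearest to 2 LFD-exclusive regions. Cxcl9, an interferon-induced chemokine that attracts T cells, held 1000, 1200 and 1000 bp at its promoter region on the HFD and none on the LFD. In females it held 1000, 0 and 800 bp on the HFD and 1200, 800 and 1000 bp on the LFD, so the male pattern was absent there. At the promoter of Lhx1, a developmental homeobox factor, the LFD libraries held 2000, 1200 and 1400 bp. All 6 female libraries had a peak in that region.

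Further HFD-exclusive regions that overlapped a TSS window were nearest to Fry, Dnalc4, Mrps5, Fgd3, Amdhd2, Prr5l and Zp1, which are not among those 11 genes. On the LFD such regions were nearest to Rasgrp4, Sox6 and Abl1, the last a tyrosine kinase gene. The Fry region held 1800, 1200 and 2200 bp in the HFD libraries and the Sox6 region 1000, 1000 and 2000 bp in the LFD libraries. The widest HFD-exclusive regions with an HNF4α site lay near Bcas1, Arhgef26, Mx1, Phf21a and Pstpip1. Mx1 encodes an interferon-induced antiviral GTPase, and an exonic region 13.3 kb from its TSS held 1000, 2400 and 1800 bp. At Bcas1, with 1400, 2600 and 1400 bp, the HNF4α site was present in both replicates of either diet. The 4 LFD-exclusive regions with such a site were nearest to Pcgf5, 2310057N15Rik, Tex2 and Hivep3, with 1000 to 2200 bp in each LFD library.

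Members of the gene lists were examined for exclusive regions within 100 kb. Of 323 annotated list genes, 8 (2.48%) were nearest to an HFD-exclusive region, against 0.887% of coding genes. For LFD-exclusive regions it was 1 (0.310%), against 0.329%. The coding genes include 9600 with no promoter peak in any list. List genes were not matched to them by the number of acetylated regions, so the shares are not of like genes. Among the 8 were H2-Ab1, Tek, Nkx2-2, Gata6, Scnn1g, Slc4a4 and Sox9, and the single gene was Foxa2. Of these, Slc4a4 (a sodium bicarbonate cotransporter) and Scnn1g belong to the list of ion and water transport. The region near Slc4a4 held 1000, 1600 and 2200 bp on the HFD. Promoters with a peak in that list numbered 16, 16 and 17 of 17 on the HFD and 15 in each LFD library. Scnn1g and Scnn1b accounted for this difference. Over all coding genes the counts of the diets overlapped, at 11689 to 12082 and 11750 to 11919. Sox9, a factor of crypt base cells, had a region 34.0 kb away with 1000, 1200 and 1000 bp. Foxa2, a pioneer factor of endoderm, had one 22.5 kb away with 1600, 1200 and 1000 bp on the LFD.

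Exclusive regions were next looked up in the H3K27ac lists of mice that had no part in their selection. In HFD females, 47.8 to 57.0% of the male HFD-exclusive regions had a peak, and in LFD females 29.4 to 42.1%. Regions of 3 male lists in other combinations showed the same order, with 42.1 to 50.3% in HFD females and 29.3 to 34.7% in LFD females. The LFD-exclusive regions did not turn the order round, since 33.7 to 53.0% had a peak in HFD females and 21.7 to 27.7% in LFD females. The female lists themselves covered a mean of 115 Mb (SD 5.83, n = 3) when fed the HFD and of 103 Mb (SD 2.29, n = 3) when fed the LFD. The part of this coverage in the shares was not tested.

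The recipients were germ-free males given bacteria of HFD-fed donors (HFB) or of LFD-fed donors (LFB). Per the methods they came from another supplier and were gavaged for 5 weeks. The lookup is therefore not of a like exposure to the 20 weeks of diet of the males above. Their H3K27ac libraries numbered 2 in HFDHFB and 3 each in HFDLFB, LFDHFB and LFDLFB, where the first letters give the diet of the recipient, and the ranges below pool both donors of a diet. In these mice, 24.6 to 52.6% of the HFD-exclusive regions had a peak in the 5 HFD-fed libraries and 24.1 to 40.4% in the 6 LFD-fed libraries. The LFD-exclusive regions had one in 44.6 to 60.2% and 27.7 to 53.0%. Ranges of the fed diets overlapped in both sets. Regions of 3 lists in other combinations had 42.3 to 61.6% and 27.4 to 49.4%.

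**Figure D3:**
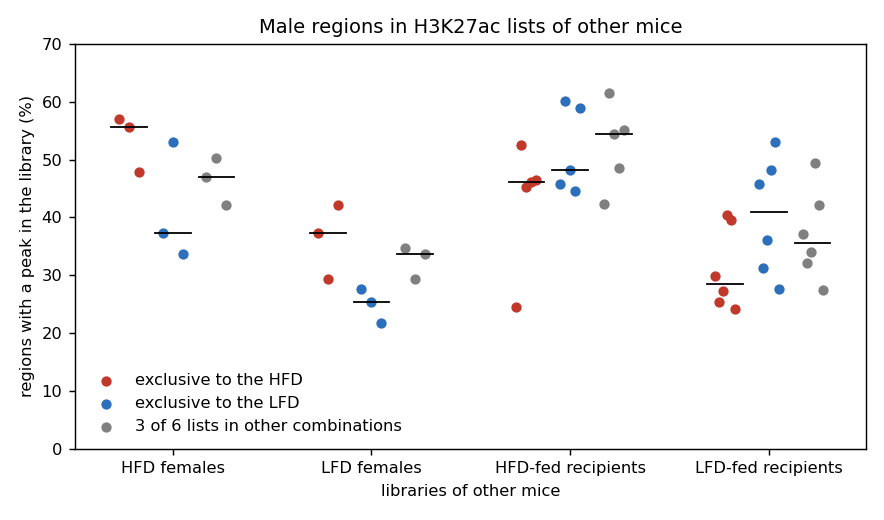
Percentage of male HFD-exclusive (red), LFD-exclusive (blue) and other 3-of-6 regions (grey) with a peak in each H3K27ac library (1 point) of females and of recipients, with black bars at the medians. All 3 classes had more peaks in HFD than in LFD females, LFD-exclusive regions included.

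A peak in at least 2 HFD females and no LFD female was found at 29 of the 228 HFD-exclusive regions (12.7%). It was found at 10 of the 83 LFD-exclusive regions as well, and at 280 of 2726 regions of 3 lists in other combinations (10.3%). The opposite female pattern was found for 2 of the 83 LFD-exclusive regions (2.41%), near Lrrc8c and Tox2, against 2.68% of the others. All 3 HFD females and no LFD female had a peak at 3 of the 228 HFD-exclusive regions, at 1 of the 83 LFD-exclusive regions and at 65 of the 2726 others. The former 3 lay 55.6 kb from Gm16833, 34.2 kb from Gm5121 and 25.4 kb from Trim29, an E3 ligase gene of epithelia. The Trim29 region held 1000, 1200 and 1600 bp in the HFD males and 1600, 1600 and 1200 bp in the HFD females. The Gm5121 region held 2600, 1400 and 800 bp in the HFD males and 1600, 1000 and 1600 bp in the HFD females. Another region of the 29 lay 39.0 kb from Lpl, which encodes lipoprotein lipase. It held 1000, 1800 and 2000 bp in HFD males and 800, 600 and 0 bp in HFD females. The Phf21a region printed above held 1400, 2000 and 1600 bp in HFD males and 2000, 0 and 1200 bp in HFD females, and the Ankrd50 region 2400, 1200 and 2000 bp and 1800, 200 and 0 bp.

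Widths of shared regions were then compared, since a region present in every library can still be broader on 1 diet. Of 25544 regions with a peak in all 6 lists, none was wider (0.0%) and none narrower (0.0%) on the HFD at an adjusted p under 0.05 in limma, and 1192 (4.67%) had an unadjusted p under 0.05. The smallest adjusted p was 0.824. Log2 differences between the diets were small, with 1% of regions below -0.71 and 1% above 0.84 and a median standard error of 0.23. Every HFD library exceeded every LFD library at 777 regions (3.04%), and the reverse held at 720 (2.82%).

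The regions with the smallest p are given by value, although none passed the adjustment. An exonic region of Nr1h4, at chr10:88974801-88980200, held 4200, 4600 and 5200 bp on the HFD and 2400, 1400 and 1400 bp on the LFD. Nr1h4 encodes FXR, the nuclear receptor for bile acids. The groups did not overlap, and the log2 difference was 1.51 ± 0.22 (SE) with an adjusted p of 0.824 in limma. Over all regions assigned to Nr1h4 the lengths overlapped, with 29200, 32800 and 39400 bp on the HFD and 29600, 26400 and 32000 bp on the LFD. At the promoter of Vcan, which encodes the matrix proteoglycan versican, the widths were 2200, 2200 and 2600 bp against 800 bp in each LFD library. The region at the promoter of H2-T3, a nonclassical MHC class I gene known from intestinal epithelium, held 3400, 3400 and 3800 bp against 1600, 1200 and 1600 bp. The other 2 of the 5 wider regions were nearest to Cryaa and Lmo4, 88.5 and 378 kb away.

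On the narrower side, an intronic region of Mtap7, a microtubule-associated protein gene, held 15000, 16400 and 15600 bp on the HFD and 21600, 20800 and 21200 bp on the LFD. It was the widest of the 10 regions, with a log2 difference of -0.40 ± 0.07 (SE) and an adjusted p of 0.977 in limma. A region near Rybp, which encodes a Polycomb complex subunit, held 1800, 1800 and 2000 bp against 4400, 4200 and 3400 bp. An intronic region of Kdm2a, a histone demethylase gene, held 1800, 2600 and 3000 bp against 6200, 6800 and 4200 bp. The remaining 2 lay near Ube2h and in an intron of Nadk.

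The female lists did not carry these differences as a group. Over the 23054 regions with a peak in all 6 male and all 6 female lists, the diet difference in log2 width of males and that of females had a Pearson r of 0.00801 and a Spearman rho of 0.00595. This correlation is across regions, which are not independent replicates. Of 647 regions wider on the HFD in males at an unadjusted p under 0.05 in limma, 51.5% were wider on the HFD in females. The share was 47.4% of the 340 that were narrower in males and 40.4% of all 23054. At the Nr1h4 region the female widths were 4600, 1200 and 4200 bp on the HFD and 3200, 0 and 1400 bp on the LFD, and the groups overlapped. At the H2-T3 promoter they were 2000, 2200 and 2400 bp and 2800, 2400 and 2000 bp, and at Vcan 1800, 2000 and 2200 bp and 1200, 0 and 1600 bp. Of these, Vcan was the one where every HFD female library exceeded every LFD female library. Of the narrower regions, Mtap7 held 20000, 19200 and 14600 bp in HFD females and 15600, 13600 and 14800 bp in LFD females. Rybp held 1800, 2800 and 1600 bp against 1200, 1600 and 1000 bp, and Kdm2a 2000, 4000 and 2600 bp against 2600, 1000 and 6000 bp. At none of the narrower regions was every HFD female library below every LFD female library.

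**Figure D4:**
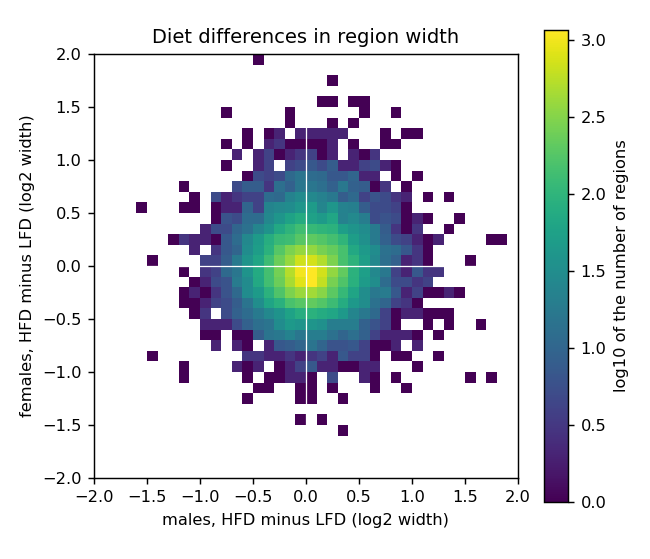
Diet difference in log2 region width (HFD minus LFD, centered on library medians) in males (horizontal axis) and females (vertical axis) for 23054 regions, with color giving log10 of the number of regions per bin of 0.1. The cloud is round about the origin, and its Pearson r is 0.00801.

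The length of peaks assigned to a gene, summed over regions whose nearest coding TSS within 100 kb was that of the gene, was compared for 12282 genes. None was longer (0.0%) and none shorter (0.0%) at an adjusted p under 0.05 in limma, and 672 (5.47%) had an unadjusted p under 0.05. Every HFD library exceeded every LFD library at 435 genes (3.54%), and the reverse held at 281 (2.29%). The smallest p on the longer side was at Tanc2, a synaptic scaffold gene, with 4600, 3400 and 3400 bp against 1200, 1000 and 800 bp. It was followed by 1700106J16Rik, D18Ertd653e, Rasgrf2 and 1700024P16Rik, of which all but Rasgrf2 include an HFD-exclusive region in their sum. On the shorter side Nubpl, which encodes an assembly factor of respiratory complex I, held 1600, 2200 and 2400 bp against 3800, 5200 and 4000 bp. Smo, the Hedgehog signal transducer, held 1200, 2400 and 2000 bp against 4000, 4800 and 3600 bp. Slc29a1, Kctd5 and Abr completed the 5. The adjusted p was 0.902 for all 10.

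Metabolic lists stood close to all genes. The median log2 difference was -0.02 over 23 genes of fatty acid oxidation and PPAR targets, 0.00 over 18 genes of lipid and sterol synthesis and -0.04 over all 12282 genes. Promoters of Fabp1 and Cd36 had no peak in any list. Cpt1a, which admits fatty acids to mitochondria, held 13800, 23800 and 21000 bp on the HFD and 25000, 17800 and 18400 bp on the LFD, and the groups overlapped. Scd1 encodes stearoyl-CoA desaturase, which makes monounsaturated fatty acids, and held 3000, 3400 and 4400 bp on the HFD and 6000, 5800 and 5200 bp on the LFD. Each HFD value was below each LFD value, and the log2 difference was -0.68 ± 0.15 (SE). In limma the adjusted p was 0.902. Insig1, which retains the sterol sensor in the endoplasmic reticulum, held 7800, 10200 and 13800 bp against 14200, 13000 and 12800 bp, and the groups overlapped. Irs2, an adaptor of the insulin receptor, held 17800, 20600 and 22400 bp against 29800, 24000 and 24400 bp. The groups did not overlap, and the adjusted p was 0.902 in limma. Its list of insulin, growth factor and Wnt signaling had 9 genes higher and 10 lower on the HFD, with a median of -0.000764. Every HFD library was below every LFD library at 2.29% of all genes.

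Lists of colonocyte function had medians close to that of all genes. The median was -0.07 over 11 absorptive colonocyte genes, -0.05 over 20 intestinal transcription factors and -0.08 over 17 ion and water transport genes. Lower on the HFD were 10 of the 11, 16 of the 20 and 11 of the 17, against 7027 of all 12282 genes. At an unadjusted p under 0.05 in limma, 2, 1 and 4 of them were shorter, against 384 of all genes. Longer at that p were 288 of all genes and, in these lists, Scnn1g alone. Its sum includes the promoter region chosen for its absence on the LFD, so its p is no test. Further genes of these lists, among them Slc4a4, Gata6 and Foxa2, also have an exclusive region in their sum. None of the list genes passed the adjustment. Slc26a3, the chloride bicarbonate exchanger of the colon surface, held 47800, 57000 and 62800 bp on the HFD and 65200, 61400 and 58600 bp on the LFD. Hnf4a held 63000, 82200 and 82200 bp against 84400, 79600 and 76000 bp. In both, HFD replicate 1 was the lowest of the 6, as it was in covered length, and the part of that library in the differences was not tested. The stem cell and Wnt target list had a median of 0.15 over 13 genes, 10 of them higher on the HFD, against 42.8% of all genes. Sox9 is 1 of the 10, and its sum includes an HFD-exclusive region. None of the 13 had an unadjusted p under 0.05 in limma. Its promoters with a peak numbered 13, 12 and 12 on the HFD and 11, 11 and 10 on the LFD. Over all coding genes the counts overlapped, at 11689 to 12082 on the HFD and 11750 to 11919 on the LFD. Nkd1 and Tnfrsf19, an inhibitor and a receptor among the Wnt targets, had a promoter peak in 2 HFD lists each and in no LFD list. Smoc2 had one in 3 HFD and 2 LFD lists. Of all merged regions, at promoters or elsewhere, 963 (2.01%) had a peak in 2 HFD lists and no LFD list. Lgr5, the stem cell receptor, held 3000, 3200 and 3000 bp at its promoter on the HFD and 2400, 1400 and 3000 bp on the LFD. Summed over the list, promoter regions held 114200, 114800 and 115800 bp against 113800, 114400 and 113400 bp. The proliferation list had a median of 0.16 over 7 genes, 5 of them higher, and 1 had an unadjusted p under 0.05.

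Genes of antigen presentation varied between single libraries. MHC class II molecules present peptides to helper T cells and are induced in gut epithelium by interferon-γ through the transactivator Ciita. Of the 8 genes of that list, one of which, Ifngr1, encodes an interferon receptor chain, 8, 5 and 3 had a promoter peak on the HFD and 2, 5 and 5 on the LFD. The promoter region of H2-Ab1 held 6000, 3200 and 2000 bp on the HFD and 0, 4400 and 1800 bp on the LFD. That of H2-Aa held 3200 bp in HFD replicate 1 and 1400 bp in LFD replicate 2, and no peak in the other libraries. HFD replicate 1 was the highest of the 6 at Ciita, H2-Aa, H2-Ab1, H2-Eb1, Cd74, H2-DMa and H2-DMb1. Ubd, an interferon-induced ubiquitin-like gene, had its promoter peak of 1600 bp in HFD replicate 1 alone. Neu4, which encodes a sialidase, had regions of 1000 and 2600 bp in LFD replicate 1 alone. The promoter values of these genes overlapped or were tied between the diets. A further region, in an exon of H2-Ab1 5.42 kb from the TSS nearest to its center, was HFD-exclusive with 1800, 1200 and 1000 bp, and had a peak in 1 HFD and 1 LFD female. Over the list the gene lengths, which include that region, had a median log2 difference of 0.47 over 6 genes, from -0.09 to 2.10, and none had an unadjusted p under 0.05 in limma.

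Leukocyte markers gave few promoter peaks, and 9 of the 12 genes had none in any list. Summed over the 12 leukocyte genes, promoter regions held 5200, 1000 and 0 bp on the HFD and 0, 2600 and 0 bp on the LFD. The HFD replicate 1 and LFD replicate 2 libraries, which had H2-Aa, were also the highest here. LFD replicate 3 held 0 bp, though 5 of its MHC class II promoters had a peak, as in LFD replicate 2. Ptprc, the pan-leukocyte CD45, gave a promoter peak in 2 HFD lists and 1 LFD list. Laptm5 gave one in 1 HFD list and Coro1a in 1 LFD list, while Cd3e, Cd3g, Cd8a, Cd79a, Itgam, Lyz2, Cd52 and Gzmb had none. Fewer or more leukocytes and a change within the epithelium cannot be told apart in bulk samples, and the part of leukocytes in the MHC class II values was not tested.

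**Figure D5:**
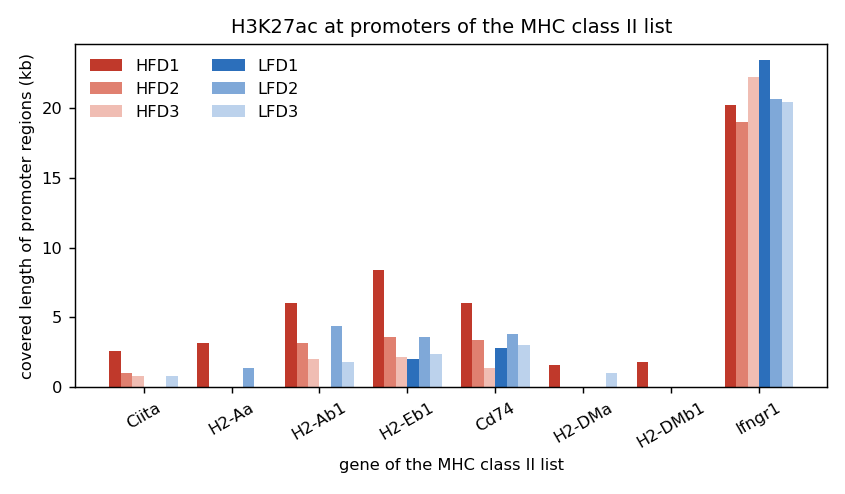
Length covered by peaks (kb, vertical axis) in the promoter regions of the 8 genes of the MHC class II list, 1 bar per library, with HFD replicates in red shades and LFD replicates in blue shades. HFD replicate 1 has the highest bar at the 7 genes other than Ifngr1.

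The effect of diet on covered length was set beside that in females. The difference between the diets was 0.447 Mb in males and 11.985 Mb in females. The male value turned negative, to between -4.67 and -1.01 Mb, without HFD replicate 2, HFD replicate 3, LFD replicate 2 or LFD replicate 3. The difference between the sexes was -11.5 Mb, males minus females, and an exact permutation of diet labels within each sex gave p = 0.26, two-sided, with 0.005 the smallest value possible.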

How the data were processed

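The authors aligned reads to mm9 with Bowtie 0.12.8, removed duplicates with Picard 1.110 and called peaks with SICER, per the labels and the methods. The deposited lists give 1 interval per peak, in multiples of 200 bp, without score or depth, and peaks were called per library. The methods report that the isolated epithelium was not free of other cells. HNF4α lists came from HOMER. The authors deposited RNA-seq read counts per gene from STAR 2.5 and featureCounts 1.5.0-p1, used here as CPM per kb of exon, from 39904191 to 48026846 counts per library.

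No peak lay past a chromosome end of NCBIM37. Coding TSS were those of GENCODE vM1. Overlap of 1 bp was enough for merging. Library values were tested by exact permutation (two-sided), with Benjamini-Hochberg adjustment over 6 tests. Log2 widths, and log2 of gene lengths with 200 bp added for genes with a mean of at least 1000 bp, were centered on library medians and fitted in limma 3.58.1 (lmFit, eBayes with trend, R 4.3.3) with adjustment over all features. A log2 difference of gene lengths is therefore on the log2(bp + 200) scale. Gene sums assign each region to 1 nearest TSS, which need not be its target. Python 3.11.15, numpy 2.4.6 and pandas 2.3.3 were used. Interval code and the fit were tested on simulated data.

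Named were the 12 HFD-exclusive and 8 LFD-exclusive regions of largest mean length, genes with an exclusive promoter or with 2 exclusive regions of a diet, regions at HNF4α sites or with the same pattern in females, the 5 smallest p per direction of each fit, Ubd and Neu4, and list members. Members and lists were chosen with earlier results of these data known. Alternatives covered merging, peak length, the TSS window, centering, filters, a replicate block, and leaving out each library. H3K4me1 lists of females were not used here. Results for some single genes are not reported here.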

Additional observations from a re-analysis of the deposited data

How the results depend on the processing

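Counts of exclusive regions depended on the replicates required. With a peak in at least 2 of 3 lists against none, 1191 regions were HFD-exclusive and 661 LFD-exclusive. Without each replicate in turn there were 383 to 723 and 151 to 336, the highest HFD count without HFD replicate 1. Fewer lists then had to carry a peak, and the HFD count stayed above the LFD count in each. Requiring peaks over at least 50% of a region gave 291 and 145.

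Both fits called 0 regions and 0 genes under every alternative. Over them the smallest adjusted p ranged from 0.0825 to 1 for regions, the lowest with eBayes without trend, and from 0.16 to 1 for genes, the lowest without HFD replicate 3. Unadjusted p under 0.05 numbered 938 to 1497 regions and 420 to 778 genes. The labels do not say whether same-numbered libraries were handled together. Deviations of same-numbered libraries correlated at -0.116, 0.00467 and -0.0917, and those of other pairs at -0.0249 to 0.111. These correlations are across regions and cannot show whether the samples were paired. With a replicate block the fits called 0 features, and 1040 regions and 539 genes had an unadjusted p under 0.05.

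No library value had a p below the threshold under any alternative. None could, since an exact permutation of so few libraries gives no p below 0.1. Leaving out 1 replicate left the difference in peaks positive, at 31.8 to 1541, and gave HFD minus LFD differences of -4.67 to 7.19 Mb in covered length, -18.7 to 178 genes in promoters, -0.0251 to 0.615 percentage points in the distal share and -0.232 to 0.408 in the HNF4α share. The covered length reversed to -1.17 without HFD replicate 2, -4.67 without HFD replicate 3, -1.01 without LFD replicate 2 and -2.48 without LFD replicate 3. The HNF4α share was -0.0698 without HFD replicate 1. The difference in median width was 0 to 100 bp without 1 replicate, and 0 with peaks of at least 600 bp or with autosomes only. The difference between the sexes was -16.7 to -4.80 Mb with 1 library left out.

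The lists carry no depth, so a peak that fell under the caller's threshold cannot be told from a region without acetylation, and a list from fewer reads holds fewer peaks.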
